A study of Mus musculus with 4 samples.

Results

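Macrophages of the mouse epididymis and vas deferens were divided by the authors' annotation into a population named for Trem2, with 26 cells, and a larger macrophage population without that name, which held the rest of the 130 macrophages. The members were taken as the cells carrying these annotation names in the deposited cell table, 130 of 8880 cells in all (1.46%). From caput through corpus and cauda to vas deferens, the larger population had 4, 17, 15 and 68 cells and the smaller 3, 7, 6 and 10. They are called Trem2 macrophages and other macrophages here. Single-cell RNA sequencing had been carried out on 4 libraries, from the caput, corpus and cauda epididymis and from the vas deferens. Each library pooled 8 pieces of tissue from the same 4 adult male FVB/NJ mice, an inbred strain, aged 10 to 12 weeks. The labels name no treatment, and all 4 libraries shared the clearing of sperm and the collagenase and trypsin digestion that released the cells. Since each region was 1 library of pooled animals, no value below has a replicate and no test was run. Levels are given in UPM, the unique transcript molecules (UMIs) of a gene summed over the cells named and scaled to a total of 1000000, and each interval is an exact 95% interval for counting error only. The annotation was made from the same counts, so differences between the annotated populations are descriptions of them.

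TREM2 is a lipid-sensing receptor of tissue macrophages that signals through the adaptor TYROBP (DAP12) and its downstream kinase SYK. It is known from brain microglia and from macrophages that have taken up lipid or dying cells, where it is found alongside APOE, lysosomal proteases and complement C1q. In the epididymis, macrophages lie around and within the epithelium, where they clear dying cells and defective sperm and present antigen in an organ that has to tolerate sperm proteins. Macrophages met by microbial products or by tissue injury instead make chemokines, cytokines and interferon-induced proteins.

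Interferon-induced and inflammatory genes were lower as groups in Trem2 macrophages, and the promoters of many such genes are known to carry motifs of the transcription factors that these signals activate. The 150 bases ahead of the start of 4 such genes are shown, from RefSeq on GRCm38.p6 (the mm10 build) and along each gene's own strand. Capitals mark matches on either strand to the interferon-stimulated response element (GAAA, 2 bases of any kind, GAAA) in Rsad2, Ifit1 and Isg15, and to an NF-kB site (GGG, 2 bases of any kind, TTTCC) in Cxcl2. In Isg15, 3 overlapping matches make up the run of capitals. The stretches lie at chr12:26456453-26456602 on the minus strand, chr19:34640739-34640888 on the plus strand, chr4:156200819-156200968 on the minus strand and chr5:90903749-90903898 on the plus strand, in the order shown.
Rsad2: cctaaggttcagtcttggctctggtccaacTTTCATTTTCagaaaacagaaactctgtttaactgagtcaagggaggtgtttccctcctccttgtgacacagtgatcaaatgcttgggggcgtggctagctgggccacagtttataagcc
Ifit1: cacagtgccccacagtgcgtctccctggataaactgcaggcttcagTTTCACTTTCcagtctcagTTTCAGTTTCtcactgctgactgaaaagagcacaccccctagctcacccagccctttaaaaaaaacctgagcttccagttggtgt
Isg15: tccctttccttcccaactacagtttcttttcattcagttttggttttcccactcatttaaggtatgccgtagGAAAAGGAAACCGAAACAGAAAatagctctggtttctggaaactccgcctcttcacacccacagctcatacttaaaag
Cxcl2: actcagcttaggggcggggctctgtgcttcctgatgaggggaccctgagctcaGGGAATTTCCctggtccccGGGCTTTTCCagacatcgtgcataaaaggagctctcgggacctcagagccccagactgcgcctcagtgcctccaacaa
The matches began 120 bases ahead of the start in Rsad2, at 85 bases and further off in Ifit1, at 78 bases in Isg15 and at 97 and 78 bases in Cxcl2. In windows of 300 bases that run from 250 before to 50 after the start, the interferon motif was found in 13 of the 20 genes of the interferon list that the promoter table holds (65%), against 3.99% of all 27025 genes in it. The NF-kB motif was found in 7 of 20 genes of the inflammatory list (35%) and in 1.89% of all genes. CACGTG, the E-box of the element shared by lysosomal genes, was found in 12 of 37 lysosomal genes (32.4%) and in 8.09% of all genes. Ccl3, Tnf and Gpnmb held no match to the motif searched in their windows. A match describes these letters and is not a shown binding site.

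Both populations carried the markers of macrophages. All 20 core macrophage genes, among them Csf1r, the growth factor receptor on which macrophages depend, were detected in each, and their sum was 3.04% of UMIs in Trem2 macrophages and 1.66% in other macrophages. The same genes summed to 0.318% in the 21 dendritic cells and 0.234% in the 44 T cells of the table. Among cells with at least 1000 UMIs, the share of this list in a cell ran from 1.26% to 5.09% with a median of 3.29% in 21 Trem2 macrophages, and from 0% to 3.67% with a median of 1.63% in 89 other macrophages. In the Trem2 population T and NK cell genes summed to 0 UPM (up to 47.0) and dendritic cell genes to 1311 UPM. There 0 of 19 and 11 of 23 of these genes were detected. Such counts of genes depend on depth, and the populations held 78547 and 306680 UMIs. In other macrophages 8 of 19 T and NK cell genes (34 UMIs) and 21 of 23 dendritic cell genes were detected, and of the dendritic list's 7271 UPM, 6186 were from the chemokine gene Ccl5. T and NK cell genes reached 2.52% of UMIs in a vas deferens cell of 1032 UMIs, against a median of 0.435% in T cells. That cell had no UMI of Apoe, C1q or MHC class II genes, and whether it is a macrophage was not tested. Flt3 and Zbtb46, which define conventional dendritic cells, were at 0 in both, although a Flt3 UMI was found in only 28.6% of the dendritic cells. The dendritic cell genes Ccr7 and Cd209a were not absent. They were found in 14.4% and 15.4% of other macrophages, in 7.69% each of Trem2 macrophages, and in 66.7% and 14.3% of dendritic cells. The dendritic list summed to 7121 UPM in dendritic cells, near its level in other macrophages. Principal cell genes summed to 1464 UPM and 681 UPM, basal cell genes to 127 and 209 UPM and muscle genes to 293 and 398 UPM in Trem2 and other macrophages, and the part of these foreign transcripts in the results was not tested.

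Pooled over libraries, the median depth was 3220 UMIs in a Trem2 macrophage and 2824.5 in an other macrophage, and the populations held 78547 and 306680 UMIs in all. From caput to vas deferens the medians were 504, 4202, 3435.5 and 1837 UMIs in Trem2 macrophages and 1633, 2776, 3738 and 2470 in other macrophages. In the caput, 1 Trem2 macrophage held 6214 of the 7148 UMIs, so the caput levels and ratios of Trem2 macrophages rest mostly on that cell. The libraries held 1433, 2325, 1616 and 3506 cells from caput to vas deferens. In the series, 43 cell barcodes were found in more than 1 library, 1 of them belonging to a macrophage. All 26 Trem2 macrophages and 103 of the other macrophages had been placed in the same of the authors' 21 clusters.

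As a share of all cells, macrophages were most frequent in the vas deferens library. From caput to cauda they were 0.488% (7 cells, 0.197% to 1.0%), 1.03% (24 cells) and 1.30% of cells (21 cells), and in the vas deferens 2.22% (78 cells, 1.76% to 2.77%). The intervals of the cauda and the vas deferens overlapped, and those of the caput and the vas deferens did not. Their share of the immune cells was near the same in each library, at 63.6%, 63.2%, 75% and 66.1%, with intervals that overlapped. Of the non-epithelial cells they were 2.16%, 3.19%, 5.43% (3.39% to 8.18%) and 4.55% (3.61% to 5.64%), highest in the cauda. The gradient over all cells was in other macrophages, which were 0.279%, 0.731%, 0.928% and 1.94% of cells, whereas Trem2 macrophages were 0.209%, 0.301%, 0.371% and 0.285%. Trem2 macrophages thus made up 3 of 7 caput macrophages (42.9%, 9.90% to 81.6%), 7 of 24 corpus macrophages (29.2%), 6 of 21 cauda macrophages (28.6%) and 10 of 78 vas deferens macrophages (12.8%, 6.32% to 22.3%). Over all libraries they made up 20% (13.5% to 27.9%), and over the 3 epididymal libraries without the vas deferens 30.8% (16 of 52, 18.7% to 45.1%). The 15 cells that the annotation calls BasalMacrophages, which also carried Trem2 (below), are in none of these macrophage shares and not among the immune cells. They were 0.279%, 0.430%, 0% and 0.0285% of cells from caput to vas deferens (4, 10, 0 and 1 cells). Digestion and recovery of cells in each library cannot be told apart from the abundance of macrophages in the tissue.

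**Figure D1:**
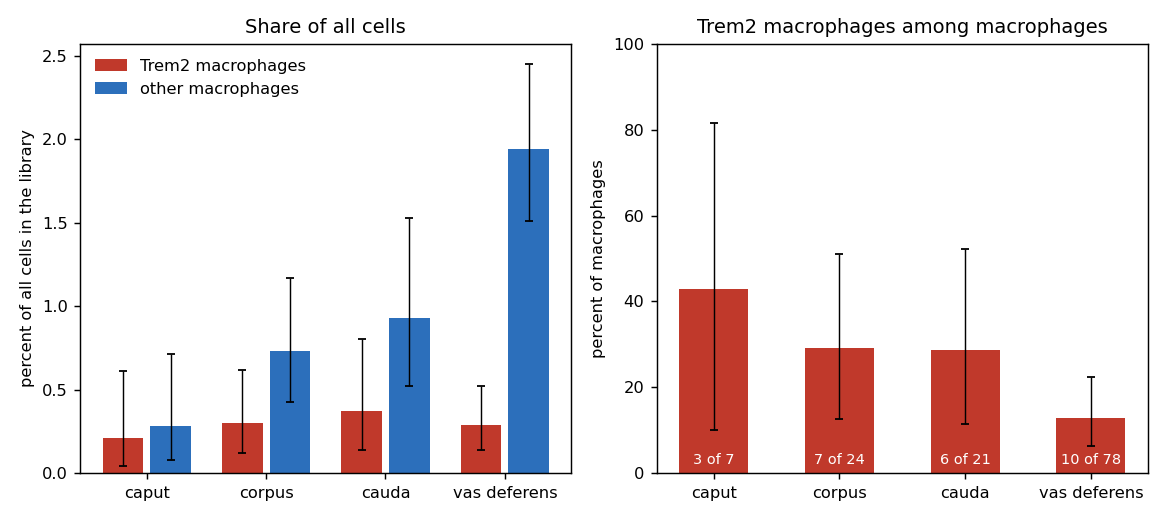
Left, Trem2 and other macrophages as a percent of all cells in each library; right, Trem2 macrophages as a percent of the macrophages of each library (the counts are written in the panel), both with exact 95% intervals for counting error. Other macrophages reach 1.94% of vas deferens cells, while Trem2 macrophages stay between 0.209% and 0.371% in the 4 libraries. The cells called BasalMacrophages are not counted.

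Trem2, on chromosome 17 at 48346401 to 48354147 on the plus strand of GRCm38, gave the smaller population its name. It measured 1259, 1404, 1059.9 and 626 UPM in the Trem2 macrophages of the caput, corpus, cauda and vas deferens, from 9, 41, 21 and 14 UMIs. In other macrophages it measured 129, 159, 185 and 205 UPM, from 1, 7, 11 and 40 UMIs. Every library value of Trem2 macrophages was above every library value of other macrophages. Pooled levels of 1082 UPM (864 to 1338) and 192 UPM (146 to 248) gave a ratio of 5.63 (3.99 to 7.98). Trem2 was not absent from other macrophages. With each cell of at least 1000 UMIs thinned to 1000, a Trem2 UMI was found in 14 of 21 Trem2 macrophages (66.7%, 43.0% to 85.4%) and in 14 of 89 other macrophages (15.7%, 8.88% to 25.0%). None of 18 dendritic cells, 30 T cells, 200 endothelial cells or 879 connective tissue cells had one after the same thinning. Without thinning the shares were 76.9% and 33.7%, at median depths of 3220 and 2824.5 UMIs.

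Adaptors of the receptor were higher in Trem2 macrophages, and the signaling genes downstream were mixed. Tyrobp, the signaling adaptor on chromosome 7, measured 2798, 3184, 1918 and 2681 UPM in Trem2 macrophages and 1809, 1114, 1464 and 1882 UPM in other macrophages. These summed library values did not overlap, and the ratio was 1.59 (1.35 to 1.87). Fcer1g, the related adaptor of Fc receptors, had 1642 and 991 UPM, a ratio of 1.66. The Fc gamma receptor genes Fcgr3 and Fcgr2b were 2.01-fold (1.29 to 3.09) and 2.34-fold higher in Trem2 macrophages. Syk, the kinase recruited by TYROBP, gave 14 and 31 UMIs and a ratio whose interval held 1 (1.76, 0.867 to 3.41). Of the 5 genes of the TREM2 signaling list with at least 40 UMIs over both populations, 3 were at least 1.5-fold higher in Trem2 macrophages and 2 in other macrophages. The 2 were the adaptor gene Grb2 (ratio 0.459, 0.213 to 0.887, 10 and 85 UMIs) and the kinase subunit gene Pik3r5 (0.542, 0.166 to 1.39, 5 and 36 UMIs).

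Against all genes, 1029 genes reached 40 UMIs over both populations, and 85 of them were at least 2-fold higher in Trem2 macrophages (8.26%) and 152 in other macrophages (14.8%). At 1.5-fold, the size used for gene lists, the background was 18.6% of genes higher in Trem2 macrophages and 25.4% higher in other macrophages, and the median ratio of all 1029 genes was 0.930. The counts leaned on the vas deferens library, which gave 68 of the other macrophages. Without it 52 genes were 2-fold higher in each direction. With the log ratios averaged within the corpus, cauda and vas deferens libraries, 136 genes were 2-fold higher in Trem2 macrophages and 43 in other macrophages. Where each cell's counts were divided by the authors' deposited size factor, the split was 65 and 383 genes in place of 85 and 152, with a median ratio over all genes of 0.625, or -0.678 on the log2 scale, against 0.930, or -0.105. Counted relative to that median of 0.625, 182 genes were 2-fold higher in Trem2 macrophages and 164 in other macrophages.

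**Figure D2:**
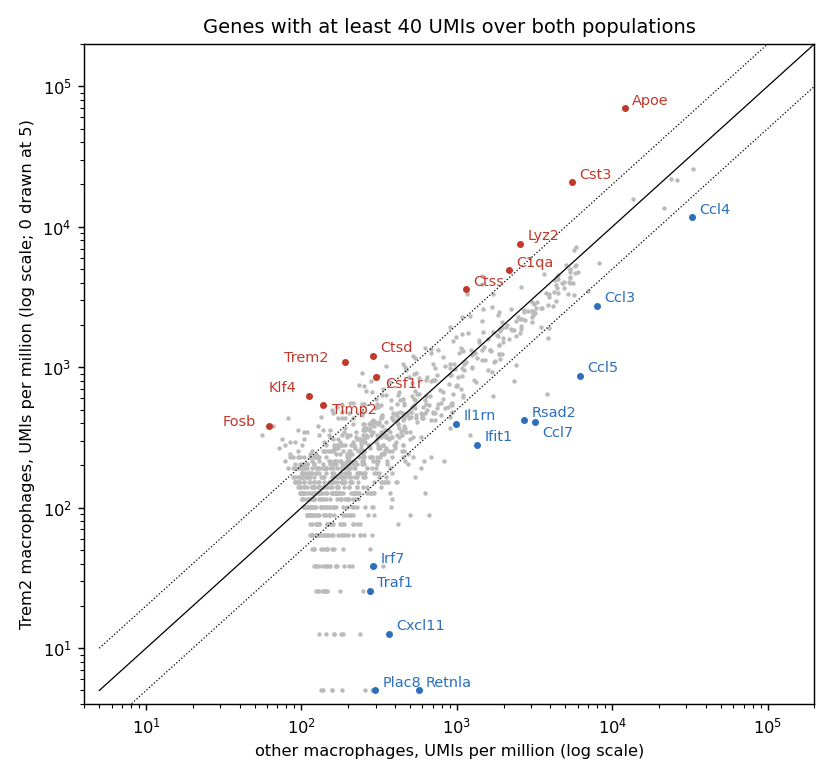
Level of each gene with at least 40 UMIs in other macrophages (horizontal) and Trem2 macrophages (vertical), in UPM on log axes, with genes at 0 in Trem2 macrophages drawn at 5. The solid line marks equal levels and the dotted lines 2-fold differences; Apoe lies at 69602 against 12029 and Ccl5 at 866 against 6186.

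Apolipoprotein E, the lipid carrier that is also a ligand of TREM2, was the most distinct abundant transcript of Trem2 macrophages. Apoe (chromosome 7) measured 109821, 77063, 61222 and 54433 UPM in the Trem2 macrophages of the 4 libraries and 8399, 8389, 12130.3 and 12961 UPM in other macrophages. Pooled, it made 69602 and 12029 UPM and a ratio of 5.79 (5.55 to 6.03). In single cells the populations were nearly apart. Apoe took 3.71% to 11.4% of the UMIs of a Trem2 macrophage, with a median of 6.03%, and 0% to 6.90% of those of an other macrophage, with a median of 0.788%. Of 89 other macrophages, 2 reached the lowest Trem2 macrophage and 18 had no Apoe UMI. Apoe is not restricted to macrophages in this tissue. The 917 cells annotated as basal cells of the epithelium had 20927 UPM. The 315 basal cells annotated BasalLowUM had 80195 UPM (79244 to 81153), above the Trem2 macrophages. Cst3, encoding the cathepsin inhibitor cystatin C, was 3.76-fold higher (3.51 to 4.03) with 18681 to 22258 UPM in the 4 libraries against 5473 to 6202 UPM.

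The complement component C1q, which tags dying cells and immune complexes for uptake, was higher in Trem2 macrophages outside the caput. C1qa, C1qb and C1qc lie side by side on chromosome 4, from position 136880129 to 136898803. C1qa measured 2238, 5238, 5501 and 4737 UPM in Trem2 macrophages and 2843, 1887, 1699 and 2358 UPM in other macrophages, with a pooled ratio of 2.25 (1.98 to 2.55). C1qb and C1qc had ratios of 1.77 (1.49 to 2.09) and 2.09 (1.73 to 2.52). In the caput, with 3 and 4 cells, the ratios were the other way, at 0.787, 0.701 and 0.325. Every Trem2 macrophage had a C1qa UMI, as did 76.9% of other macrophages. At 1000 UMIs a cell the shares were 100% and 62.9%, and 0 of 879 connective tissue cells had one.

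Surface receptors of mature macrophages went the same way. Csf1r had 559.6, 548, 757 and 1430.1 UPM in Trem2 macrophages and 258, 273, 269 and 322 UPM in other macrophages, a ratio of 2.81 (2.02 to 3.89). The summed library values did not overlap, but those of the caput lay near the level of 3 UMIs (419.7 and 388 UPM). Single cells were not apart, since at 1000 UMIs a cell 66.7% of Trem2 and 22.5% of other macrophages had a Csf1r UMI. Emr1, the gene of the macrophage antigen F4/80 now named Adgre1, was 2.69-fold higher (1.44 to 4.93), and the fractalkine receptor gene Cx3cr1 gave 14 against 7 UMIs, 7.81-fold (2.95 to 22.9). Cd68 at 1.36-fold (0.951 to 1.92) and Mrc1 at 1.35-fold (0.915 to 1.94) had intervals that held 1. Of 16 core macrophage genes above the minimum, 11 were at least 1.5-fold higher in Trem2 macrophages and 0 in other macrophages, with a median ratio of 1.71. Pf4, a platelet and macrophage chemokine gene, differed by library, with 0, 68.5, 555 and 4827 UPM in Trem2 macrophages and 1034, 227, 421 and 1263 UPM in other macrophages.

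Lysosomal genes were higher as a group in Trem2 macrophages. Of 47 such genes, 22 had enough UMIs, 15 of them were at least 1.5-fold higher in Trem2 macrophages and 0 in other macrophages, and the median ratio was 1.93. Summed, the list was 2.00-fold higher (1.89 to 2.11), and 1.95-, 3.07-, 2.29- and 1.84-fold in the caput, corpus, cauda and vas deferens. A cell's share of UMIs from this list ran from 0.981% to 4.29% with a median of 2.14% in Trem2 macrophages, and from 0.194% to 3.55% with a median of 1.01% in other macrophages, so that the ranges overlapped. Ctsd, encoding the aspartic protease cathepsin D, measured 1259, 1780.2, 606 and 983 UPM against 0, 90.9, 151 and 384 UPM. Its pooled ratio of 4.21 (3.12 to 5.70) became 11.1 without the vas deferens library and 2.73 without the corpus library. Ctss, encoding the cathepsin that trims the MHC class II invariant chain, was 3.13-fold higher (2.66 to 3.67) with 2816 to 4451 UPM against 1120.1 to 1211 UPM. Grn, encoding the lysosomal protein progranulin, was 2.94-fold higher (2.05 to 4.19). Ctsb had a ratio of 1.94 (1.67 to 2.26), which became 3.51 without the vas deferens library. Subunits of the vacuolar ATPase, which acidifies lysosomes, were not higher, with 0 of 9 genes at 1.5-fold or more and 2 of 9 that far below.

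Genes that mark lipid-laden macrophages in other tissues were mixed. Of 21 genes of that list above the minimum, 8 were at least 1.5-fold higher in Trem2 macrophages and 2 in other macrophages, with a median of 1.33. Cd9, a tetraspanin gene, was 3.29-fold higher (1.90 to 5.68). Lgals3, the galectin-3 gene, went the other way, with 229 UPM against 678 UPM, 2.96-fold higher in other macrophages (1.83 to 5.09). Spp1, encoding osteopontin, had 115 and 121 UPM, and Gpnmb gave 0 and 1 UMI. Abca1, the cholesterol exporter gene, had a ratio of 0.994.

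Among the 15 genes with the largest ratios on the Trem2 side were further secreted and regulatory proteins. Timp2, an inhibitor of matrix metalloproteases, had 139.9, 445, 757 and 581 UPM against 0, 68.2, 101 and 169 UPM, a ratio of 3.90 (2.48 to 6.14) that became 6.38 without the vas deferens library. Rnase4, a secreted ribonuclease gene, was 4.07-fold higher (2.20 to 7.55) in 13 and 18 cells. Klf4, a transcription factor gene of monocytes and macrophages, measured 1539, 582, 808 and 223 UPM against 258, 250.1, 151 and 61.4 UPM, 5.63-fold higher (3.56 to 8.99). Sptssa, encoding a small subunit of the enzyme that begins sphingolipid synthesis, was 5.97-fold higher (3.12 to 11.7). Several others rested on few cells or on 1 library. Mmp12, the macrophage elastase gene, had 29 of its 34 UMIs in 1 Trem2 macrophage, Areg had all 28 UMIs in 2 cells of the corpus, and Pmepa1 went from 5.86 to 1.25 without the corpus. The ratio of Mmp12, 5.31 over all libraries, was 1.06 without the corpus and 19.1 without the vas deferens. That of Areg, 3.77, was 0.614 without the corpus and 6.20 without the cauda, with a side under 3 UMIs set at 3. Fosb, an immediate early gene, went from 6.16 to 3.17 without the vas deferens library, to 3.97 without the caput and to 13.6 without the corpus. Smim14 went from 3.73 to 5.61 without the vas deferens library and to 2.42 without the corpus, and Zfp36l1 from 3.58 to 1.98 and 5.64.

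Genes that the study used to name both populations were chosen on these cells, so their direction is not independent evidence. Of the 12 genes used for Trem2 macrophages, 10 were above the minimum and 10 of 10 were at least 1.5-fold higher there. Lyz2, the lysozyme gene, had a ratio of 2.95 (2.65 to 3.29) and Wfdc17, a secreted antiprotease-like protein gene, of 2.84 (2.41 to 3.35), which became 5.18 and 7.34 without the vas deferens library. Dcxr, a carbonyl reductase gene, had 14 and 6 UMIs (9.11, 3.29 to 28.9), and a ratio of 3.96 without the vas deferens library. Of the 6 genes used for the larger population, 4 were at least 1.5-fold higher in other macrophages, while Tnf (ratio 0.974, 0.809 to 1.17) and Cd14 (0.893, 0.770 to 1.03) were not.

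The larger population was set apart by chemokines. Of 24 inflammatory cytokine and chemokine genes above the minimum, 17 were at least 1.5-fold higher in other macrophages and 1 (the oncostatin M gene Osm, 1.86) in Trem2 macrophages, with a median ratio of 0.444. Summed, the list had a ratio of 0.460 (0.444 to 0.476), and of 0.101, 0.398, 0.391 and 0.430 from caput to vas deferens. In single cells the list took 0.0552% to 11.7% of the UMIs of Trem2 macrophages with a median of 4.04%, and 0.0193% to 34.4% of those of other macrophages with a median of 8.36%. These ranges overlapped widely. In the caput, the Trem2 macrophage of 6214 UMIs was at 1.17%, and those of 504 and 430 UMIs at 1.19% and 10.7%.

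Ccl3, Ccl4 and Ccl5, chemokines that attract T cells and monocytes, were higher in other macrophages in each library. Ccl3 (chromosome 11, at 83647844 to 83649355) measured 2938, 3663, 1817 and 2279 UPM in Trem2 macrophages and 13955, 19847, 7789.6 and 5212 UPM in other macrophages. The other macrophages were higher in every library and 2.93-fold pooled (2.55 to 3.39), and the Trem2 to other ratio was 0.225 without the vas deferens library. Its neighbor Ccl4 measured 699, 17254, 8681 and 10458 UPM against 45742, 57176, 27996 and 28115 UPM, 2.81-fold higher in other macrophages (2.62 to 3.01). Ccl5 measured 139.9, 616, 2221 and 223 UPM against 388, 1864, 5030.5 and 7738 UPM, a 7.15-fold difference (5.61 to 9.24). Leaving out the vas deferens or the cauda library gave Trem2 to other ratios of 0.325 and 0.0632 for Ccl5. The difference in Ccl3 was one of level, since at 1000 UMIs a cell 71.4% of Trem2 macrophages and 76.4% of other macrophages had a UMI of it.

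Attractants of monocytes and neutrophils followed. Ccl2, the main monocyte attractant, measured 279.8, 685, 1110.4 and 313 UPM in Trem2 macrophages and 6978, 4183, 2372 and 4066 UPM in other macrophages, 5.90-fold higher (4.45 to 7.97) with no overlap of the summed library values. Ccl7, which also attracts monocytes, measured 699, 0, 1262 and 89.4 UPM against 4652, 2842, 1800.2 and 3621 UPM, 7.81-fold higher (5.50 to 11.5). The Trem2 to other ratio of Ccl7 was 0.222, 0.0339 and 0.2 without the vas deferens, cauda and corpus library. Cxcl2, a neutrophil attractant whose promoter is shown above, measured 6995, 20917, 12315 and 7374 UPM against 48714, 42922, 27019.8 and 14096 UPM. It was higher in other macrophages in each library, 1.59-fold pooled (1.49 to 1.69), although the vas deferens value of other macrophages lay below the corpus value of Trem2 macrophages. Cxcl1 was 2.00-fold higher in other macrophages (1.76 to 2.28).

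Cytokines were less uniform. Tnf measured 1679, 3013, 959 and 1341 UPM in Trem2 macrophages and 3618, 4501, 2944 and 1002 UPM in other macrophages, so it was lower in the Trem2 macrophages of each epididymal library and higher in those of the vas deferens, with a ratio of 0.587 without the vas deferens library, 1.01 without the caput and 1.30 without the cauda. Il1b had a ratio of 0.889 and Il1a of 1.37. Il1rn, encoding the antagonist of the interleukin 1 receptor, was 2.50-fold higher in other macrophages (1.73 to 3.75), except in the corpus with a ratio of 1.25, and had a ratio of 0.136 without that library. Il12b, a subunit of interleukins 12 and 23, gave 7 and 203 UMIs, of which 67 were in 1 cell, and its ratio was 0.0303 without the vas deferens library and 0.532 without the corpus. Il10 had 153 and 408 UPM, with its 12 UMIs in 1 Trem2 macrophage. Il6 gave 1 and 50 UMIs.

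Targets and feedback regulators of NF-kB, the factor behind many of these genes, were closer between the populations. Of 29 NF-kB target and feedback genes, 10 were at least 1.5-fold higher in other macrophages and 1 in Trem2 macrophages, with a median ratio of 0.785. Traf1, a signaling adaptor gene of the tumor necrosis factor receptors, gave 2 and 85 UMIs, 10.9-fold higher in other macrophages (2.92 to 91.3). Tnfsf9, encoding the ligand of a costimulatory receptor of T cells, gave 3 and 102 UMIs, 8.71-fold higher (2.90 to 42.9). Without the corpus library the ratios of Trem2 to other macrophages were 0.225 for Traf1 and 0.207 for Tnfsf9.

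Interferon-induced genes were lower in Trem2 macrophages as a group. Of 13 genes of this list above the minimum, 10 were at least 2-fold and so also 1.5-fold higher in other macrophages and 0 in Trem2 macrophages, with a median ratio of 0.30. Summed, the ratio was 0.320 (0.285 to 0.359), and 0.379, 0.528, 0.299 and 0.263 from caput to vas deferens. Rsad2, encoding the antiviral enzyme viperin, measured 0, 445, 555 and 402 UPM in Trem2 macrophages and 129, 955, 2036 and 3422 UPM in other macrophages. It was 6.47-fold higher in other macrophages (4.57 to 9.46), with a Trem2 to other ratio of 0.290 without the vas deferens library. Ifit1, an RNA-binding antiviral protein gene, measured 139.9, 308, 101 and 447 UPM against 517, 1319, 1245 and 1432 UPM, 4.84-fold higher (3.16 to 7.81). Isg15, a ubiquitin-like modifier gene, measured 0, 2739, 1161 and 1073 UPM against 1421, 4865, 3836 and 3739 UPM, 2.39-fold higher (1.99 to 2.89). For these 3 genes, whose promoters are shown above, other macrophages were higher in each library. At 1000 UMIs a cell, 28.6% of Trem2 macrophages and 44.9% of other macrophages had an Rsad2 UMI.

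Other members of the interferon list varied in how many cells carried them. Irf7, the transcription factor of the interferon loop, gave 3 and 89 UMIs, with 32 of the 89 in 1 cell, and had a ratio of 0.226 without the cauda library. Slfn5 gave 3 and 91 UMIs, with a ratio of 0.424 without the vas deferens library. Cxcl11, an interferon-induced T cell attractant, gave 1 and 112 UMIs, 28.7-fold higher in other macrophages (5.04 to 1143), with a ratio of 0.258 without the vas deferens library. Cxcl10, which binds the same receptor, was 2.91-fold higher in other macrophages. The interferon beta gene Ifnb1 itself had 229 and 382 UPM, 1.66-fold higher in other macrophages (1.01 to 2.91). Ambient RNA was removed by the authors before the counts used here, by 3.46% of UMIs in Trem2 and 3.23% in other macrophages.

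**Figure D3:**
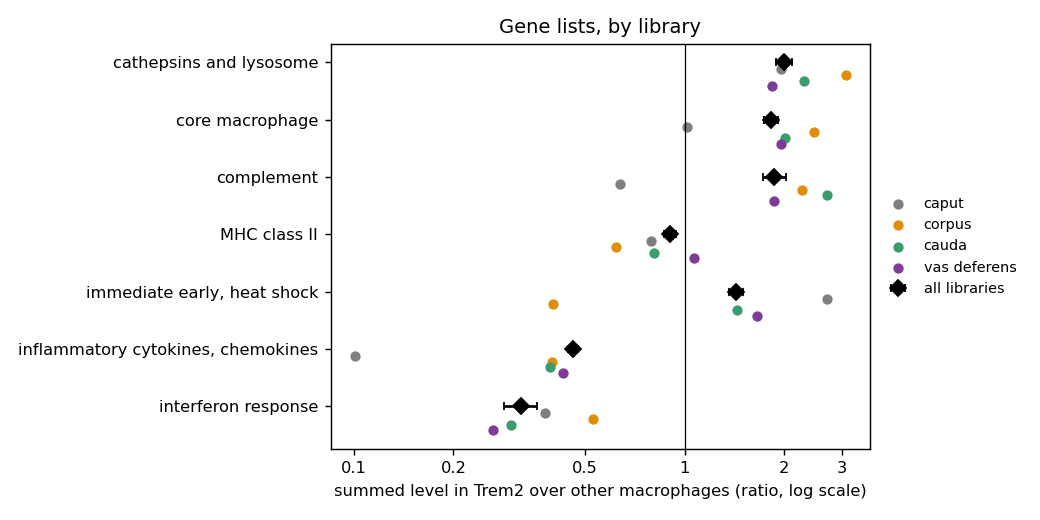
Summed level of 7 gene lists in Trem2 macrophages over other macrophages, as a ratio on a log axis, by library (dots) and pooled (diamonds with 95% counting intervals). Lysosomal genes lie above 1 in the 4 libraries (1.84 to 3.07), while inflammatory (0.101 to 0.430) and interferon (0.263 to 0.528) genes lie below 1 in all of them. The caput ratios rest mostly on 1 Trem2 macrophage, with 6214 of 7148 UMIs.

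Antigen presentation genes of MHC class II differed less between the populations. Cd74, the invariant chain of MHC class II, measured 23923, 18624, 25085 and 21988 UPM in Trem2 macrophages and 30495, 37011, 34826 and 20729.8 UPM in other macrophages, a ratio of 0.833. H2-Aa had 3679 and 4855 UPM (0.758) and H2-Ab1 a ratio of 0.937. Of 8 class II genes above the minimum, 1 was at least 1.5-fold higher in each population. Summed, the list had a ratio of 0.904 (0.867 to 0.942), below 1 in the caput, corpus and cauda (0.793, 0.622 and 0.809) and 1.07 in the vas deferens. It became 1.01 without the corpus library. For class I genes, 0 of 5 differed 1.5-fold in either direction.

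Immediate early and heat shock genes, which respond within minutes to stress and to tissue dissociation, differed between the populations in a direction that depended on the library. Of 28 genes 11 were at least 1.5-fold higher in Trem2 macrophages and 1 in other macrophages, with a summed ratio of 1.43 (1.36 to 1.5). By library the ratio was 2.70, 0.401, 1.44 and 1.65, and without the corpus library it was 2.15. Under the size factor scaling it was 0.905. The median ratio of all genes was 0.625 under that scaling, and relative to this median the list was at 1.45, against 1.54 relative to the median of 0.930 under UPM. Hspa1a, an inducible heat shock protein gene, measured 13011, 137, 2877 and 1296 UPM in Trem2 macrophages and 5556, 3410.1, 1413 and 501 UPM in other macrophages. Hspa1a and Hspa1b are near-identical copies, and the authors' counting ignored reads that map to both, so the level of each is uncertain and may be too low. The chemokine and lysosome lists kept their directions in the caput, corpus, cauda and vas deferens, where this list did not, and its part in them was not tested.

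Monocyte genes were low in Trem2 macrophages. Of 16 genes of this list 3 had enough UMIs, and all 3 were at least 1.5-fold higher in other macrophages. The minimum of UMIs is summed over both populations and so favors genes of the larger one, and this count alone shows no direction. The sum over the whole list needs no minimum. It was 255 UPM in Trem2 macrophages (20 UMIs) and 1656 UPM in other macrophages (508 UMIs), a ratio of 0.154 (0.0931 to 0.240). Plac8, a small cysteine-rich protein gene of monocytes, gave 0 and 91 UMIs, at least 7.77-fold higher in other macrophages, in 11 cells of the cauda and vas deferens. S100a6 and S100a11, genes of calcium-binding proteins, gave 0 and 79 UMIs and 0 and 87 UMIs, at least 6.74- and 7.43-fold. Ccr2, the receptor with which monocytes enter tissue, gave 0 and 21 UMIs, below the minimum. Retnla, a secreted marker of alternative activation, gave 0 and 174 UMIs, of which 115 were in 1 of 8 cells. Fabp5, a fatty acid carrier gene, gave 2 and 76 UMIs, with 75 of the 76 in the vas deferens, and Mmp13, a collagenase gene, 1 and 73 UMIs. Without the vas deferens library Fabp5 gave 2 UMIs and 1 UMI. A gene under 3 UMIs on a side is set at 3 for such ratios of Trem2 to other macrophages, which were then 0.457 for Mmp13, 0.237 for S100a11 and 0.283 for S100a6 without the vas deferens library, and 0.222 for Retnla and 0.226 for Plac8 without the cauda.

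Other macrophages varied among themselves, among other ways, by C1q, a division chosen after these data were seen. Of 89 other macrophages with at least 1000 UMIs, 17 had no UMI of C1qa, C1qb or C1qc, of which 14 were vas deferens cells, 2 corpus cells and 1 a cauda cell. They were shallower, with a median of 1918 UMIs against 3488 in the 72 others. Among the 17 was the vas deferens cell of 1032 UMIs with many T and NK cell transcripts described above. Of 809 genes above the minimum, 90 were at least 2-fold higher in the cells without C1q (11.1%) and 214 in those with it (26.5%). Plac8 was the most distinct, with 85 UMIs in 9 of the cells without C1q and 3 UMIs in 1 cell with it. Coro1a (6.52-fold), Lsp1 (6.24-fold) and Cytip (5.62-fold), genes of the leukocyte cytoskeleton and of adhesion, were also higher without C1q. The monocyte list was 5.25-fold higher there (4.37 to 6.30). The dendritic cell list had a summed ratio of 1.06 (0.929 to 1.20), but most of its UPM in other macrophages were from Ccl5. Its members differed. Gm2a was 4.06-fold higher without C1q (2.29 to 7.05) and Itgax gave 3 and 2 UMIs. Ccr7 (1.07, 0.407 to 2.38) and Cd209a (0.906, 0.232 to 2.56) had intervals that held 1. The monocyte list is not particular to monocytes, since it summed to 5682 UPM in the cells without C1q and 4468 UPM in T cells. The cells without C1q held 1 UMI of Tnf against 582, and 0 UMIs of Cxcl1, Ccl2 and Ccl7 against 2065, 1120 and 924. Their Apoe was 296 UPM against 13498 UPM and their Ccl4 835 UPM against 35875 UPM. The general myeloid genes Lyz2 (ratio 0.989) and Fcer1g (0.925) were alike in both. With these 17 cells left out, the comparison of Trem2 with other macrophages gave 77 and 142 genes 2-fold apart, and too few UMIs of Plac8 were then left to place it.

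**Figure D4:**
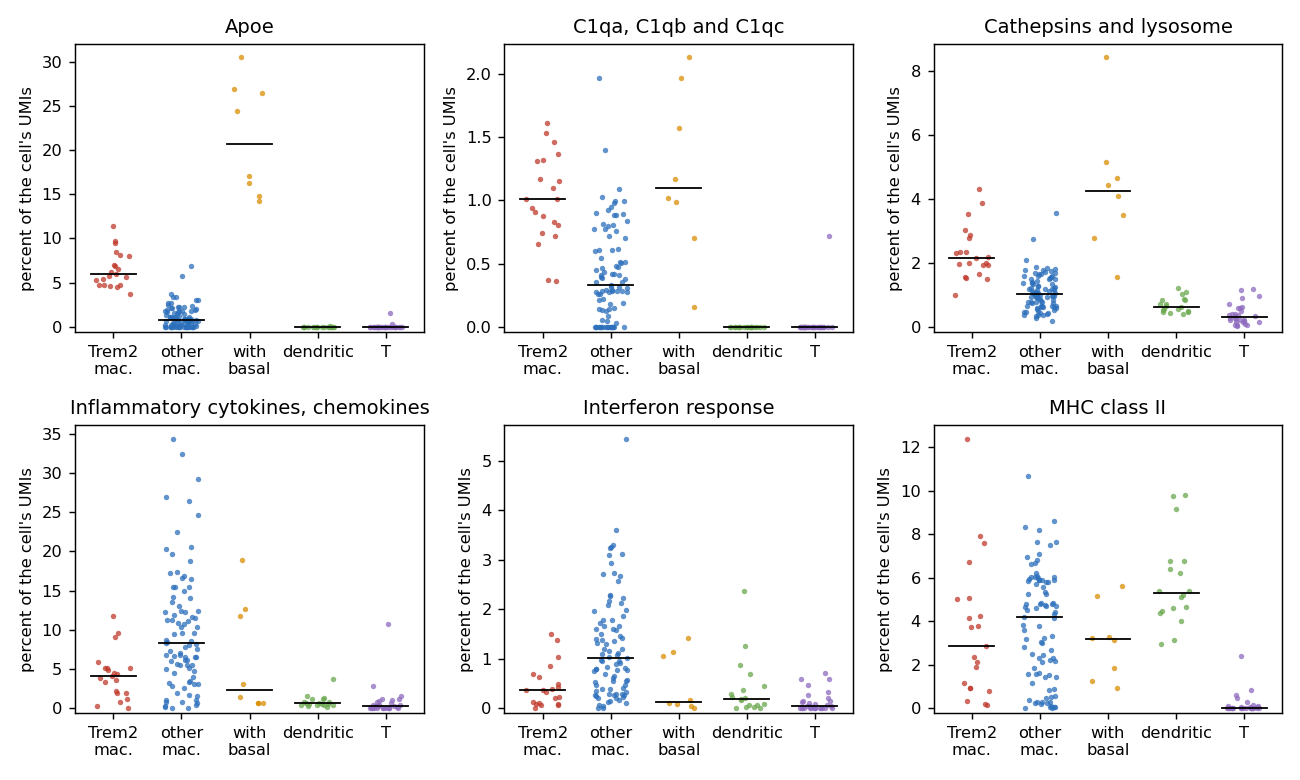
Percent of each cell's UMIs from Apoe, from the C1q genes and from 4 gene lists, for cells with at least 1000 UMIs in 5 populations ("with basal" is the 15 cells the table calls BasalMacrophages); each point is a cell and each line a median. Median Apoe is 6.03% in Trem2 macrophages, 0.788% in other macrophages and 20.7% in those with basal, and dendritic and T cells lie at or near 0.

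Compared with other immune cells, macrophages of both kinds stood out by chemokines, C1q and Apoe. Of 1580 genes with at least 40 UMIs, 105 were at least 4-fold higher in all 130 macrophages than in both the dendritic cells and the T cells (6.65%), and 17 without the vas deferens library, which held 19 of the 21 dendritic cells. The largest ratio was that of Cxcl1, with 6248 UPM in macrophages, 0 in dendritic cells and 18.1 UPM in T cells. Cxcl2 had 19980.4, 0 and 580.1 UPM, Ccl4 28412, 358 and 1142 UPM, and Il1a 779, 11.6 and 0 UPM in the same order. C1qa had 2728, 162 and 99.7 UPM, and its 14 and 11 UMIs in dendritic and T cells each came from 1 cell. Apoe had 23768, 520.2 and 852 UPM. Pmp22, a membrane protein gene also known from myelin, had 571, 23.1 and 0 UPM. The genes lowest in macrophages were T cell genes, with 0 UMIs of Cd3g, Cd7 and Xcl1 against 743, 580.1 and 544 UPM in T cells and 1 UMI of Gzmb and of Spink11 against 1278 and 399 UPM.

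Antigen presentation genes were higher in dendritic cells than in macrophages. Cd74 had 25157 UPM in macrophages and 37002 UPM in dendritic cells, and H2-Aa 4615 and 8172 UPM. Cst3, higher in Trem2 than in other macrophages, was higher still in dendritic cells at 25847 UPM. Tnf had 1937 UPM in macrophages, 208 in dendritic cells and 0 in T cells. Trem2 itself gave 0 UMIs in dendritic cells (up to 42.6 UPM) and 2 UMIs in T cells.

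A further 15 cells that the table calls BasalMacrophages had the highest Trem2 level of the 34 populations annotated, and 14 of them came from the caput and corpus. Their Trem2 level was 1840.1 UPM, against 1082 UPM in Trem2 macrophages, a ratio of 1.70 (1.15 to 2.48). C1qa (1.09, 0.887 to 1.34) and Csf1r (1.40, 0.870 to 2.21) had ratios whose intervals held 1. Of 311 genes, 14 were at least 2-fold higher in these cells (4.50%) and 79 in Trem2 macrophages (25.4%). Apoe took 210159 UPM, 3.02-fold more (2.90 to 3.14), and Gsn, encoding the actin-severing gelsolin, had 42 and 3 UMIs. Of the 42, 41 were in the single vas deferens cell, which also held 52 of the 53 stromal marker UMIs of these cells, and without it the Gsn ratio was 1.15 (0.0219 to 14.3). Without that cell the ratio of Trem2 was 1.74 and that of Apoe 3.01. Lysosomal Ctsd and Ctsl were 3.43- and 5.14-fold higher. Pf4 gave 0 UMIs against 121 in Trem2 macrophages, at least 12.0-fold lower, and Ccl8 0 against 55. By library, Pf4 in Trem2 macrophages was low in the caput and corpus and highest in the vas deferens, as given above. Ccl8 gave 103 UMIs in the other macrophages of the vas deferens and 0 in those of the epididymis. Of the Trem2 macrophages, 6 came from the cauda and 10 from the vas deferens, unlike the cells compared here. For Pf4, Ccl8 and the other genes of this pooled comparison, population and region can therefore not be told apart. The basal cell keratins Krt5 and Krt14 gave 2 UMIs each, and these cells were shallow, with a median of 1035 UMIs.

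Trem2 was also detected in epithelial basal cells of the distal tract. The 917 cells annotated as basal had 9.85, 16.2, 194 and 268 UPM from caput to vas deferens, from 12, 32, 151 and 303 UMIs. The cauda value was within the 129 to 205 UPM that other macrophages had by library, and the vas deferens value (239 to 300.3) was above it. Of these cells 213 had a Trem2 UMI, 7 a C1q UMI and 3 both, and Tyrobp had 1.18 UPM in them. At 1000 UMIs a cell, 84 of 871 basal cells had a Trem2 UMI (9.64%), against 0 of 879 connective tissue cells.

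Within the larger population, macrophages of the vas deferens (68 cells) differed from those of the epididymis (36 cells). Of 833 genes above the minimum, 107 were at least 2-fold higher in the vas deferens (12.8%) and 35 in the epididymis (4.20%), 142 in all, or 222 without the cauda library. The median ratio of all genes was 1.11. The minimum is summed over both regions and favors genes of the vas deferens, which held 195516 of the 306680 UMIs, and so tilts these counts. At 1.5-fold the background was 26.4% of genes higher in the vas deferens and 11.8% in the epididymis. Ccl8, a chemokine of resident macrophages, gave 103 UMIs in the vas deferens and 0 in the epididymis, at least 19.5-fold higher. Vcam1, an adhesion receptor gene, had 332 and 27.0 UPM from 65 and 3 UMIs (12.3, 4.03 to 61.3). Spic, encoding a transcription factor of macrophages that take up red blood cells, had 281 and 18.0 UPM from 55 and 2 UMIs (15.6, 4.13 to 132). Nupr1, a stress-response regulator gene, had 517 and 36.0 UPM (14.4, 5.44 to 53.7). Fabp5 and the lectin gene Clec4n gave 75 and 50 UMIs against 1 each, and Pkm, of glycolysis, was 8.81-fold higher (3.27 to 33.4). The secreted protease inhibitor gene Slpi gave 43 UMIs against 1.

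Genes of uptake and of the lysosome were among those higher in the vas deferens. Of 28 efferocytosis and scavenging genes 5 were above the minimum, and those 5 were at least 1.5-fold higher there, with a summed ratio of 2.60 (2.06 to 3.31). Of 17 genes of resident perivascular macrophages 3 were above it, and those were also higher, 4.08-fold summed (3.24 to 5.19). Since the minimum favors genes of the vas deferens, both counts alone show no direction. The sums over the whole lists need no minimum. Of 19 lysosomal genes 10 were 1.5-fold higher in the vas deferens and 1 in the epididymis, with a summed ratio of 1.51 (1.40 to 1.63). The list that named Trem2 macrophages was 2.21-fold higher (2.00 to 2.44) in these cells outside that population, with Wfdc17 at 4.77-fold and Lyz2 at 2.84-fold. Akr1b7, an aldo-keto reductase of vas deferens epithelium, gave 122 and 0 UMIs, and Tpm2, a muscle tropomyosin gene, 42 and 1. Muscle genes as a list were 7.14-fold (3.63 to 16.0) and principal cell genes 2.33-fold (1.65 to 3.36) higher in the vas deferens, and their part in the result was not tested.

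Inflammatory and stress genes were higher in the epididymal macrophages. Tnf had 3607 UPM in the epididymis and 1002 UPM in the vas deferens, 3.60-fold (3.03 to 4.29). Il12b had 1763 and 35.8 UPM, 49.2-fold (23.5 to 124). Il10, the anti-inflammatory cytokine gene, had 747 and 215 UPM, 3.48-fold (2.37 to 5.17), and Ptgs2, of prostaglandin synthesis, 756 and 215 UPM, 3.52-fold (2.40 to 5.22). Phlda1 had 693 and 113 UPM. Retnla had 1070.5 and 281 UPM, but without the 1 cauda cell that held 115 of its UMIs it was at 38.5 UPM in the epididymis, below the vas deferens. The 196 epididymal UMIs of Il12b were 13, 153 and 30 from caput to cauda, 67 of them in 1 corpus cell, and the ratio was 33.8 without that cell, 17.9 without the corpus and 89.6 without the cauda. Of 23 inflammatory genes 12 were at least 1.5-fold higher in the epididymis and 5 in the vas deferens, with a summed vas deferens to epididymis ratio of 0.632 (0.618 to 0.646). Immediate early and heat shock genes moved with them, with 17 of 26 higher in the epididymis, 0 in the vas deferens and a summed ratio of 0.552 (0.524 to 0.581). Among these were Hspa1a (4.97-fold), Hspa1b (5.86-fold), the co-chaperone gene Dnaja1 (5.42-fold) and the stress-induced factor gene Atf3 (3.49-fold). Without the corpus library these were 3.77-, 2.75-, 3.26- and 2.16-fold. Without the cauda library Hspa1a was 7.44-fold, Hspa1b 11.3-fold and Atf3 5.56-fold higher, and without the vas deferens cell with most of its UMIs Hspa1a was 18.4-fold higher. Il10 was 2.18-fold higher without the 1 corpus cell with the most UMIs of it. The part of the stress genes in the difference between the regions was not tested. MHC class II genes had a summed ratio of 0.655 (0.632 to 0.679) and interferon genes of 1.20 (1.12 to 1.29).

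**Figure D5:**
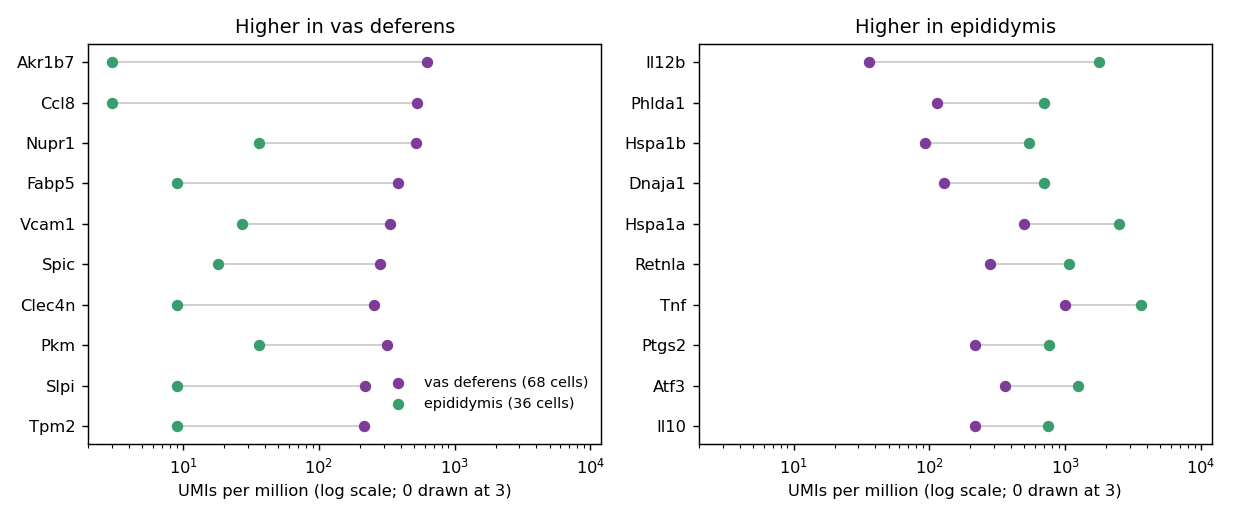
Level of the 10 genes with the largest ratio in each direction between the other macrophages of the vas deferens (68 cells) and of the epididymis (36 cells), in UPM on a log axis, with 0 drawn at 3. Il12b lies at 1763 in the epididymis and 35.8 in the vas deferens, and Ccl8 and Akr1b7 were at 0 in the epididymal cells.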

How the data were processed

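Tissue from 4 libraries was sequenced as single cells. According to the submitters' processing notes, reads were converted with bcl2fastq and aligned with HISAT2 2.0.4 to mm10. The methods of the study state that unique molecular identifiers were counted per gene on RefSeq transcripts with ESAT, that multimapping reads were ignored, that barcodes with few or very many UMIs were left out and that ambient RNA was then subtracted with SoupX in a modified form. As deposited by the authors, the UMI count table holds 16892 genes in 8880 cells, with total UMIs listed per cell at 350 to 14999 before that subtraction (macrophages held 238 to 9429 after it), with the authors' clusters, 34 annotated populations and a size factor for each cell, which is a deposited score.

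Counts were summed per population and library and scaled to a total of 1000000 (UPM). Ratios carry exact conditional binomial intervals, levels exact Poisson intervals and shares Clopper-Pearson intervals, at 95%. Genes needed 40 UMIs over the populations compared, and a gene under 3 UMIs was set at 3 for rankings and limits. With 1 library per region no test was run. The members and the gene lists were chosen with earlier results of these data known. Genes named in the text were those the study used to name both populations, list members, and the genes with the largest ratios (15 in each direction between the macrophage populations, 10 in the other comparisons, 5 for genes low in macrophages). A few genes that this rule names are not reported here. Promoters of interferon genes, Cxcl2 and the cells without C1q were chosen after values were seen. A simulation of doublets marked 178 cells (2.00%, set to 0.8% per 1000 cells), 0 of them macrophages, dendritic cells or T cells. The number of calls was fixed in advance, and by library 36.0% to 59.8% of the simulated doublets were recovered. Doublets among these cells are therefore not excluded. The scripts were tested on simulated data. Python 3.11.15, numpy 2.4.6, pandas 2.3.3, scipy 1.17.1, scikit-learn 1.9.0 and matplotlib 3.10.9 were used, with GENCODE positions on GRCm38 and RefSeq promoters on GRCm38.p6. Alternatives covered the scaling, the minimum of UMIs, the fold, the depth of thinning, leaving out each library, doublets, shallow cells and cells with transcripts of other types.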

Additional observations from a re-analysis of the deposited data

Results flagged for a closer look

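In 6 measures the Trem2 to other macrophage ratio lay on one side of 1 in the caput, corpus and cauda and on the other side in the vas deferens. These differences between the vas deferens and the epididymis were not tested, since each region was 1 library. The MHC class II list had a ratio of 1.07 in the vas deferens against 0.793, 0.622 and 0.809 in the caput, corpus and cauda. The list of chemokine and chemoattractant receptors had 1.31 against 0.914, 0.743 and 0.833. The iron and heme list went the other way, with 0.718 against 1.52, 1.26 and 1.08, as did the glycolysis and hypoxia list, with 0.822 against 1.73, 1.21 and 1.10. For the cytokine gene Tnf the ratio was 1.34 in the vas deferens against 0.464, 0.669 and 0.326. For Il12b it was 6.24, from 5 and 7 UMIs, against 0, 0.0197 and 0.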

How the results depend on the processing

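The values below have no test, since regions are not replicates of each other. Both populations are in each library, and their ratios were also averaged within libraries. The caput macrophages number 7. Where a value moved, the cause was not tested. Macrophages as 2.22% of vas deferens cells became 66.1% of its immune cells and 4.55% of its non-epithelial cells (75% and 5.43% in the cauda). Of the 85 genes higher in Trem2 macrophages, the count became 191, 26 and 9 at 1.5-, 3- and 4-fold, 233, 34 and 1696 with at least 20, at least 100 and no minimum of UMIs, and 136 with ratios averaged within libraries. The 152 genes higher in other macrophages became 261, 76 and 37 at these folds, 252, 47 and 252 at these minimums, 43 within libraries, 383 with the size factor and 95 without the cells (3 Trem2 and 33 other macrophages) that had over 1% of UMIs in markers of other types. Leaving out each library gave 52 to 82 and 52 to 170 genes, and Trem2 macrophages were 17.9% to 30.8% of macrophages.

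The lysosome ratio of 2.00 became 2.22 as a mean over cells, 1.63 with the size factor and 2.35 within libraries (1.82 to 2.59 without each library). The inflammatory ratio of 0.460 became 0.336 with the size factor, 0.437 without ribosomal and mitochondrial genes, 0.444 without cells with other types' markers, 0.414 without the cells lacking C1q and 0.406 within libraries (0.384 to 0.498). The interferon ratio of 0.320 became 0.378 as a mean over cells, 0.229 with the size factor and 0.394 without cells with other types' markers (0.255 to 0.380). These lists kept their direction under the alternatives run. The size factor moved all genes (median ratio 0.625), and relative to that median the lysosome, inflammatory, interferon, immediate early and MHC class II lists were at 2.61, 0.537, 0.367, 1.45 and 0.855. The immediate early and heat shock ratio of 1.43 fell below 1 within libraries (0.983) and, before this centring, with the size factor (0.905), and was 1.27 as a mean over cells, 1.36 without ribosomal and mitochondrial genes and 1.31 without cells with other types' markers (1.06 to 2.15). The MHC class II ratio of 0.904 became 0.996, 0.534, 0.859, 0.862 and 0.814 as a mean over cells, with the size factor, without ribosomal and mitochondrial genes, without the cells lacking C1q and within libraries (0.707 to 1.01, above 1 without the corpus).

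The 105 genes 4-fold higher in macrophages than in dendritic and T cells became 69 with the size factor, 66 without ribosomal and mitochondrial genes, and 366, 161 and 38 at 1.5-, 3- and 8-fold (17 to 110 without each library, 17 without the vas deferens). The 142 genes apart between the vas deferens and the epididymis became 316 with the size factor, 318, 54 and 31 at 1.5-, 3- and 4-fold, and 343, 50 and 923 with at least 20, at least 100 and no minimum of UMIs (113 to 222 without each library). The 15.7% of other macrophages with a Trem2 UMI became 8.16% at 500 UMIs, 33.8% at a deeper thinning, 33.7% unthinned and 1.12% with at least 2 UMIs (14.7% to 18.8%). Single genes that changed direction were Areg (0.614 without the corpus, 0.614 to 6.20 over the libraries left out) and Tnf (0.974, with 0.587 to 1.30 over the libraries left out and 1.08 as a mean over cells). Plac8 (1.72 without the cells lacking C1q), Fabp5 (1.98 without the vas deferens, 0.165 to 1.98 over the libraries left out, 1.16 within libraries) and Mmp13 (1.25 within libraries) passed 1 only with counts under 3 UMIs set at 3, which shows no change of direction. Without the 1 cell with most of its UMIs, Retnla was higher in the vas deferens than in the epididymis. Of the other values for single genes, 93 moved and 500 did not. The averages within libraries, the kept dendritic markers, the cells lacking C1q and the single cells left out were alternatives chosen after seeing the data.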
